A study of Mus musculus with 20 samples.

Results

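Microglia of the spinal cord were followed in mice fed vehicle chow, from sham cords to 7 and 28 days after a contusion injury (dpi). They were taken as the cells that the authors' clustering put in cluster 0, in the 3 vehicle libraries of the single-cell RNA-seq experiment. These were 6802 cells, with 674 from sham cords, 2154 from 7 dpi and 3974 from 28 dpi, of 7018 cells of this cluster in all 6 libraries and 21016 cells in the whole table. The 3 libraries together held 19080 cells of all clusters. All mice were C57BL/6J females of 8 to 10 weeks that had received vehicle chow from 2 weeks before surgery. Sham mice had a laminectomy at T9 and no contusion, and injured mice had a contusion at the same level. The label of the sham library names both 7 and 28 d and no single day, so it was the 1 reference for both times. Each library was 1 pool of 3 to 4 mice, from which 1 cm of unperfused cord with its meninges was dissociated and depleted of myelin and dead cells before droplet capture with a 10x Chromium 3' kit.

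Microglia are the resident macrophages of the central nervous system. At rest they express a set of genes that other macrophages largely lack, among them the purinergic receptor P2ry12, the surface protein Tmem119, the lectin Siglech and the receptor Gpr34. Near lesions, dying cells and myelin debris they are known to lower these genes and to express lipid-handling, lysosomal and secreted proteins, a pattern often named disease-associated microglia. After spinal cord injury they share the tissue with monocyte-derived macrophages (MDMs) that enter from blood.

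Clusters were made from expression, and the authors gave P2ry12, Siglech and Tmem119 as enriched in the one they named microglia. The levels of the 4 markers therefore describe the cluster and are no independent check of its name. Their summed level was 2533 UMIs per 1000000 UMIs (CPM) over the cells of cluster 0, against 773 in the next highest cluster, which also held erythroid genes, and 399 in the MDM cluster. Within the microglia it was 6948, 1602 and 2158 CPM in sham, 7 dpi and 28 dpi, so the cells after injury carried the markers at a lower level than sham cells, and above the MDM cluster of the same library (1583, 268 and 466 CPM). Genes of other cells were also read in the microglia. The 6 MDM markers (F13a1, Ms4a7, Pf4, Mrc1, Clec10a and Ccr2) summed to 12.4, 288 and 104 CPM in the 3 libraries, with Ms4a7 and Clec10a at 0 UMIs in sham. Astrocyte markers summed to 171, 92.9 and 119 CPM, oligodendrocyte markers to 123, 78.8 and 74.2 and erythroid markers to 121, 23.3 and 12.9, all highest in sham. Neutrophil markers, at 112, 209.7 and 235 CPM, and endothelial markers, at 19.6, 36.3 and 52.2 CPM, were higher after injury. Markers of T cells, NK cells, monocytes, neurons and ependymal cells stayed at or under 7.85 CPM in each library. Few barcodes were shared between libraries: 1 microglial barcode between sham and each injured library and 2 between 7 and 28 dpi. Among lymphocytes, cells with at least 8 UMIs of the C1q genes per 1000 UMIs made up 2.22, 20.7 and 22.3%. Doublets were left in, since the caller that was tried marked 10, 1 and 1 cells of the 3 libraries and so did not work here.

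The microglia held 2095992, 6751337 and 7928357 UMIs in sham, 7 dpi and 28 dpi, a UMI being 1 captured transcript molecule. The median cell had 3178, 2902.5 and 1686 UMIs, and 1456, 1066 and 771 genes, so cells at 28 dpi were the shallowest. They made up 37.5, 29.0 and 40.4% of their libraries. For each library the UMIs of all its microglia were added up gene by gene and are given as CPM with an exact Poisson 95% interval. A difference is the log2 ratio of CPM between 2 libraries minus the median of that ratio over the 8201 genes that reached 100 UMIs when the 3 libraries were added, and is written here as relative to the median gene. That median was -0.57 for 7 dpi against sham, -0.45 for 28 dpi against sham and 0.12 for 28 against 7 dpi, which is how far plain CPM would move every value. Where 3 levels follow each other they are those of sham, 7 dpi and 28 dpi, and where 2 differences follow each other they are those of 7 dpi and of 28 dpi against sham. Values in brackets after a level or a difference are its 95% interval, which covers counting error only. With 1 library per condition there was no test between conditions and no replicate check of any difference. A gene counts as past 2-fold where its difference lay at least 1 on the log2 scale from the median gene, and where a library held 0 UMIs of a gene the ratio was formed with a floor of 3 counts.

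The first question was how far the microglia of each time stood from sham, and the second how far both times stood apart. At 7 dpi, 870 of 8201 genes (10.6%) were at least 2-fold above sham relative to the median gene and 454 (5.54%) at least 2-fold below. At 28 dpi these were 671 genes (8.18%) above and 249 (3.04%) below. By plain CPM the balance turned over, with 345 genes above and 1945 below sham at 7 dpi and 321 above and 1103 below at 28 dpi, so whether more genes were higher or lower depends on the centring. Between 28 and 7 dpi they were 43 genes (0.524%) higher and 40 (0.488%) lower at 28 dpi. That number depends on depth and on the minimum, being 167 higher and 114 lower with at least 30 UMIs per gene, 159 and 117 with both injured sums drawn down to the sham total, and 8 and 18 with intervals wholly past 2-fold. In the MDM cluster (cluster 1), of 9234 genes 7.99% were 2-fold above and 6.90% below sham at 7 dpi, 3.89 and 4.05% at 28 dpi, and 3.29 and 3.68% between the times. The comparisons share libraries, so their values for a gene are not independent of one another. Among 8125 genes tested in both clusters, 75 (0.923%) were past 2-fold between the times in microglia and 401 (4.94%) in the MDM cluster. The microglial differences spread from -0.43 to 0.50 and those of the MDM cluster from -0.59 to 0.80, leaving out the 5% of genes at each end. The difference between the clusters was not tested, since each is 1 library per time.

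**Figure D1:**
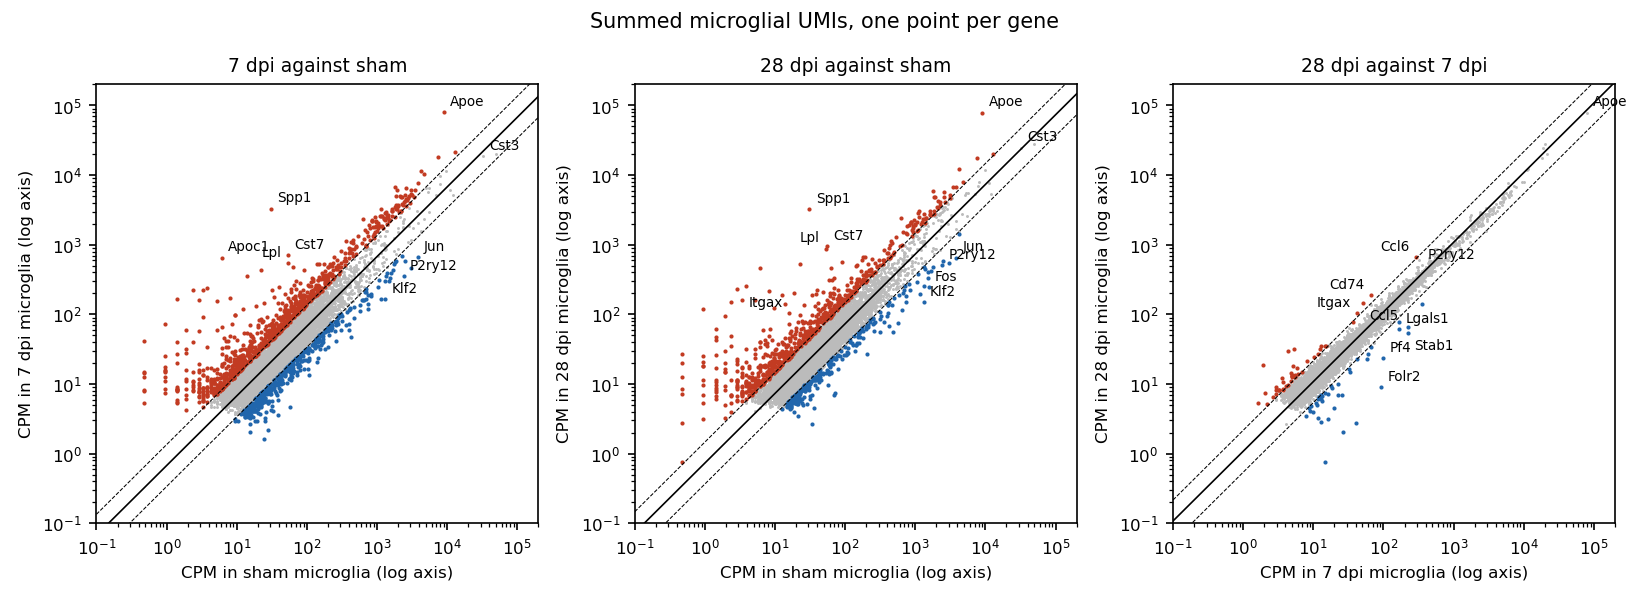
Level of each tested gene in the microglia of 2 libraries, in CPM on log axes, for 7 dpi against sham, 28 dpi against sham and 28 against 7 dpi (1 point per gene, 1 library per axis, genes with UMIs in both). The solid line is the median gene and the dashed lines lie 2-fold from it, with genes past them in red (higher) and blue (lower). Apoe and Spp1 lie far above and P2ry12 and Jun below the lines in both comparisons with sham, while 28 against 7 dpi forms a narrow band.

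Genes of resting microglia stood lower after injury, but unevenly. Of 26 homeostatic genes tested, 8 were at least 2-fold below the median gene at 7 dpi and 7 at 28 dpi, against 5.54 and 3.04% of all genes. Their median difference was -0.48 at 7 dpi, -0.66 at 28 dpi and 0.01 for 28 against 7 dpi, the median of all genes being 0 by construction, and by plain CPM -1.05 at 7 dpi and -1.11 at 28 dpi, past 2-fold lower. P2ry12, a receptor for ADP that guides microglial processes, read 2409.8 CPM (2344 to 2477) in sham cells, 351 (337 to 365) in cells of 7 dpi and 509.7 (494 to 526) in those of 28 dpi, a difference of -2.21 (-2.28 to -2.14) and -1.80 (-1.86 to -1.74). Siglech measured 1316, 300.4 and 473 CPM in the same order, Tmem119 1385, 391 and 449.7 CPM and Gpr34 1838, 560.3 and 726 CPM. All 4 markers were lowest at 7 dpi, and at 28 dpi Siglech and P2ry12 stood 0.54 (0.46 to 0.62) and 0.42 (0.35 to 0.50) above their 7 dpi level, short of 2-fold and far under sham. Slc2a5, a fructose transporter, followed the same order with 259 CPM in sham, 42.2 at 7 dpi and 58.4 at 28 dpi. Cx3cr1, the receptor for the neuronal ligand fractalkine, and Csf1r, the receptor whose signal keeps microglia alive, lay within 2-fold of the median gene at both times, at -0.33 and -0.63 for Cx3cr1 and -0.32 and -0.74 for Csf1r, but by plain CPM both were past 2-fold lower at 28 dpi, at -1.07 and -1.19. Cst3, a cystatin that microglia express strongly, differed by -0.24 and 0.05. Fcrls was the 1 gene of the list past 2-fold above sham at 7 dpi, with 1211 CPM in sham, 1719 at 7 dpi and 1109 at 28 dpi, and differences of 1.07 (1.01 to 1.14) and 0.32 (0.25 to 0.38), but not by plain CPM.

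The purinergic list holds receptors for extracellular nucleotides and adenosine, related receptors and enzymes that break nucleotides down. It shares P2ry12, P2ry13, Gpr34 and Entpd1 with the homeostatic list. Of 9 tested, 4 were past 2-fold lower at 7 dpi and 3 at 28 dpi, against 5.54 and 3.04% of all genes, among them P2ry13 (469, 127 and 135 CPM in sham, 7 dpi and 28 dpi) and the adenosine receptor Adora3 (163, 39.3 and 48.2 CPM). P2ry6, which senses UDP, and P2rx4, an ATP-gated channel, were not among them, with differences of 0.13 and -0.23 for P2ry6 and 0.65 and 0.55 for P2rx4. Adrb1, an adrenergic receptor, was also far below sham, with 140.3, 20.6 and 29.4 CPM. Transcription factors of the lineage lay closer to the median gene, with medians of -0.36 and -0.44, or -0.92 and -0.89 by plain CPM. Their sum was 7204, 3582 and 4140 CPM. Sall1, a factor that keeps microglial identity, read 292 CPM in sham, 97.5 at 7 dpi and 112 at 28 dpi, a difference of -1.01 (-1.17 to -0.85) and -0.93 (-1.08 to -0.78), while Irf8, needed for microglial development, lay at 0.04 and 0.03. Of 15 such factors, 2 were past 2-fold higher and 2 lower at 7 dpi, and 2 higher and 1 lower at 28 dpi, near the shares of all genes (10.6 and 8.18% higher and 5.54 and 3.04% lower). The higher ones at 7 dpi were Bhlhe40, with 2 UMIs in sham and a difference of 4.31 (2.41 to 7.37), and Hif1a, the oxygen-sensitive factor, at 68.7 CPM in sham, 185 at 7 dpi and 196 at 28 dpi. In the TGF-beta pathway, which maintains the resting state, 1 of 11 genes was past 2-fold lower at each time and none higher, near the 5.54 and 3.04% of all genes that were lower. It was Smad7, an inhibitor that the pathway itself induces, with 581 CPM in sham, 136 at 7 dpi and 193 at 28 dpi, or -1.53 (-1.66 to -1.41) and -1.15 (-1.26 to -1.04). The median of the TGF-beta list was -0.53 and -0.23, or -1.10 and -0.68 by plain CPM, and its sum was 2782, 1352 and 1685 CPM. The receptor genes Tgfbr1 (-0.61 and -0.23) and Tgfbr2 (0.29 and 0.42) and the ligand Tgfb1 (0.60 and 0.51) were all within 2-fold, though Tgfbr1 was past 2-fold lower at 7 dpi by plain CPM (-1.18).

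The disease-associated genes stood above sham at both times and kept nearly the same level between them. Their sum was 40779, 148094 and 148081 CPM in the microglia, under the 145235, 216566 and 221919 CPM of the MDM cluster. Of 27 genes of this list, 23 were past 2-fold higher at 7 dpi and 23 at 28 dpi, with none lower, against 10.6 and 8.18% of all genes. The median difference was 1.99 at 7 dpi, 2.32 at 28 dpi and -0.06 for 28 against 7 dpi, and 2 genes, Itgax and Ccl6, were past 2-fold higher at 28 than at 7 dpi, against 0.524% of all genes. Apoe, the lipid carrier, read 9039 CPM (8910.4 to 9168) in sham cells, 80171 (79958 to 80385) in cells of 7 dpi and 78690.2 (78495 to 78886) in those of 28 dpi, a difference of 3.72 (3.70 to 3.74) and 3.57 (3.55 to 3.59). It took 0.904% of all microglial UMIs in sham, 8.02% at 7 dpi and 7.87% at 28 dpi. Spp1, the secreted phosphoprotein osteopontin, had the largest difference at both times among genes whose UMIs reached 300 over both libraries compared and 10 in each, with 31.0 CPM in sham, 3290.3 at 7 dpi and 3247 at 28 dpi and a difference of 7.30 (6.95 to 7.67) and 7.16 (6.81 to 7.53). Lpl, lipoprotein lipase, and Cst7, a cystatin that inhibits lysosomal proteases, were higher at 28 than at 7 dpi, at 53.4, 551 and 881 CPM and 54.4, 709.9 and 951 CPM in sham, 7 dpi and 28 dpi. Their differences between the times were 0.56 (0.50 to 0.62) and 0.31 (0.25 to 0.36), short of 2-fold. Igf1, a growth factor, read 3.82 CPM in sham, 236 at 7 dpi and 255 at 28 dpi, near a common level after injury. Trem2, the receptor that senses lipids and drives this pattern, was within 2-fold of sham relative to the median gene, at 0.84 and 0.63, and its adaptor Tyrobp was past it, at 1.90 and 1.62. Clec7a, a receptor for fungal glucans, and Axl, a receptor for dying cells, stood at 90.2, 440.1 and 569.9 CPM and 59.6, 232 and 315 CPM.

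Lipid handling gave the highest median of the lists at 7 dpi, 2.52. Of its 18 genes, 14 were past 2-fold higher at 7 dpi and 14 at 28 dpi, against 10.6 and 8.18% of all genes. Apoc1, a small apolipoprotein, had 13 UMIs in sham, 4423 at 7 dpi and 3687 at 28 dpi (6.20, 655 and 465 CPM). Apoc4 had 0 UMIs in sham and 92.7 and 146 CPM after injury, so against the floor it was higher by at least 6.58 and 7.11 on the log2 scale. Ch25h, which makes 25-hydroxycholesterol, had 2 UMIs in sham and stood at 73.5 and 119.7 CPM after injury, a difference of 6.83 (4.97 to 9.88) and 7.42 (5.56 to 10.46). These genes did not all keep their level: Apoc1 was -0.61 (-0.67 to -0.55) and Apoc2 -0.72 (-0.83 to -0.61) at 28 against 7 dpi, while Ch25h was 0.59 (0.43 to 0.75) and Apoc4 0.54 (0.39 to 0.68). The cholesterol exporter Abca1 read 203, 479 and 373 CPM, and Npc2, which moves cholesterol out of lysosomes, 1051, 2026 and 2133 CPM. Genes of sterol synthesis lay near the median gene. Of 13 tested genes of cholesterol and fatty acid synthesis, 3 were past 2-fold higher at each time, against 10.6 and 8.18% of all genes. The list's median was 0.01 and -0.01, or -0.56 and -0.46 by plain CPM. The higher ones belong to fatty acid synthesis and desaturation (Acaca 2.97 and 3.34, Fasn 1.82 and 1.55 and Scd2 1.66 and 1.69), and enzymes of the sterol branch such as Hmgcs1 (0.15 and -0.01), Cyp51 (-0.23 and -0.28) and Msmo1 (-0.25 and -0.10) were within 2-fold.

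Of 20 growth factor and matrix genes, 9 were past 2-fold higher at 7 dpi and 10 at 28 dpi, against 10.6 and 8.18% of all genes. Spp1 and Igf1 were among them. Fn1, fibronectin, read 8.11 CPM in sham, 174 at 7 dpi and 217 at 28 dpi, a difference of 4.99 (4.31 to 5.78) and 5.19 (4.51 to 5.97). Cspg4, a proteoglycan, had 2 UMIs in sham and 102 and 167 after injury. Timp2, an inhibitor of matrix proteases, and Grn, the lysosomal growth factor progranulin, stood at 672, 1645 and 1503 CPM and 1382, 2667 and 1940 CPM. Pdgfb, a platelet growth factor chain, was the 1 gene past 2-fold lower at 7 dpi, with 170.3 CPM in sham, 54.2 at 7 dpi and 72.8 at 28 dpi. Tgm2 and Tgfbi, a crosslinking enzyme and a matrix protein that macrophages express, lay within 2-fold at each time, at -0.12 and -0.56 for Tgm2 (-1.01 at 28 dpi by plain CPM) and 0.18 and -0.51 for Tgfbi.

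Galectins, annexins and cytoskeletal genes gave 17 of 26 genes past 2-fold higher at 7 dpi and 15 at 28 dpi, against 10.6 and 8.18% of all genes. Their medians were 1.54 and 1.16, or 0.97 and 0.71 by plain CPM, short of 2-fold. Lgals3, a lectin of phagocytes, read 2.86 CPM in sham, 160.4 at 7 dpi and 233 at 28 dpi, and Crip1, a small LIM protein, 18.6, 133 and 205 CPM. Tmsb10 and Tmsb4x, which bind actin monomers, stood at 176, 326 and 613 CPM and 13012, 21419 and 20139 CPM, while Actb, a cytoplasmic actin, lay at 0.77 and 0.44 and Coro1a, an actin regulator of leukocytes, at -0.06 and 0.11. Several of the farthest genes stood outside the lists. Gm1673, a predicted gene, gave 5.25, 154 and 163 CPM, Lilrb4, an inhibitory receptor, 9.54, 96.7 and 123 CPM, Psat1, an enzyme of serine synthesis, 8.59, 73.8 and 60.8 CPM and Fam20c, a kinase of secreted proteins, 6.68, 46.2 and 59.9 CPM. On the lower side were Txnip, an inhibitor of thioredoxin, at 741, 120.3 and 150.5 CPM, Tsc22d3, a glucocorticoid-induced factor, at 311, 59.8 and 56.6 CPM and Cebpd, an inflammatory transcription factor, at 394, 59.4 and 96.2 CPM. Between 28 and 7 dpi the difference was 0.58 (0.40 to 0.76) for Cebpd and -0.20 (-0.39 to 0.00) for Tsc22d3.

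**Figure D2:**
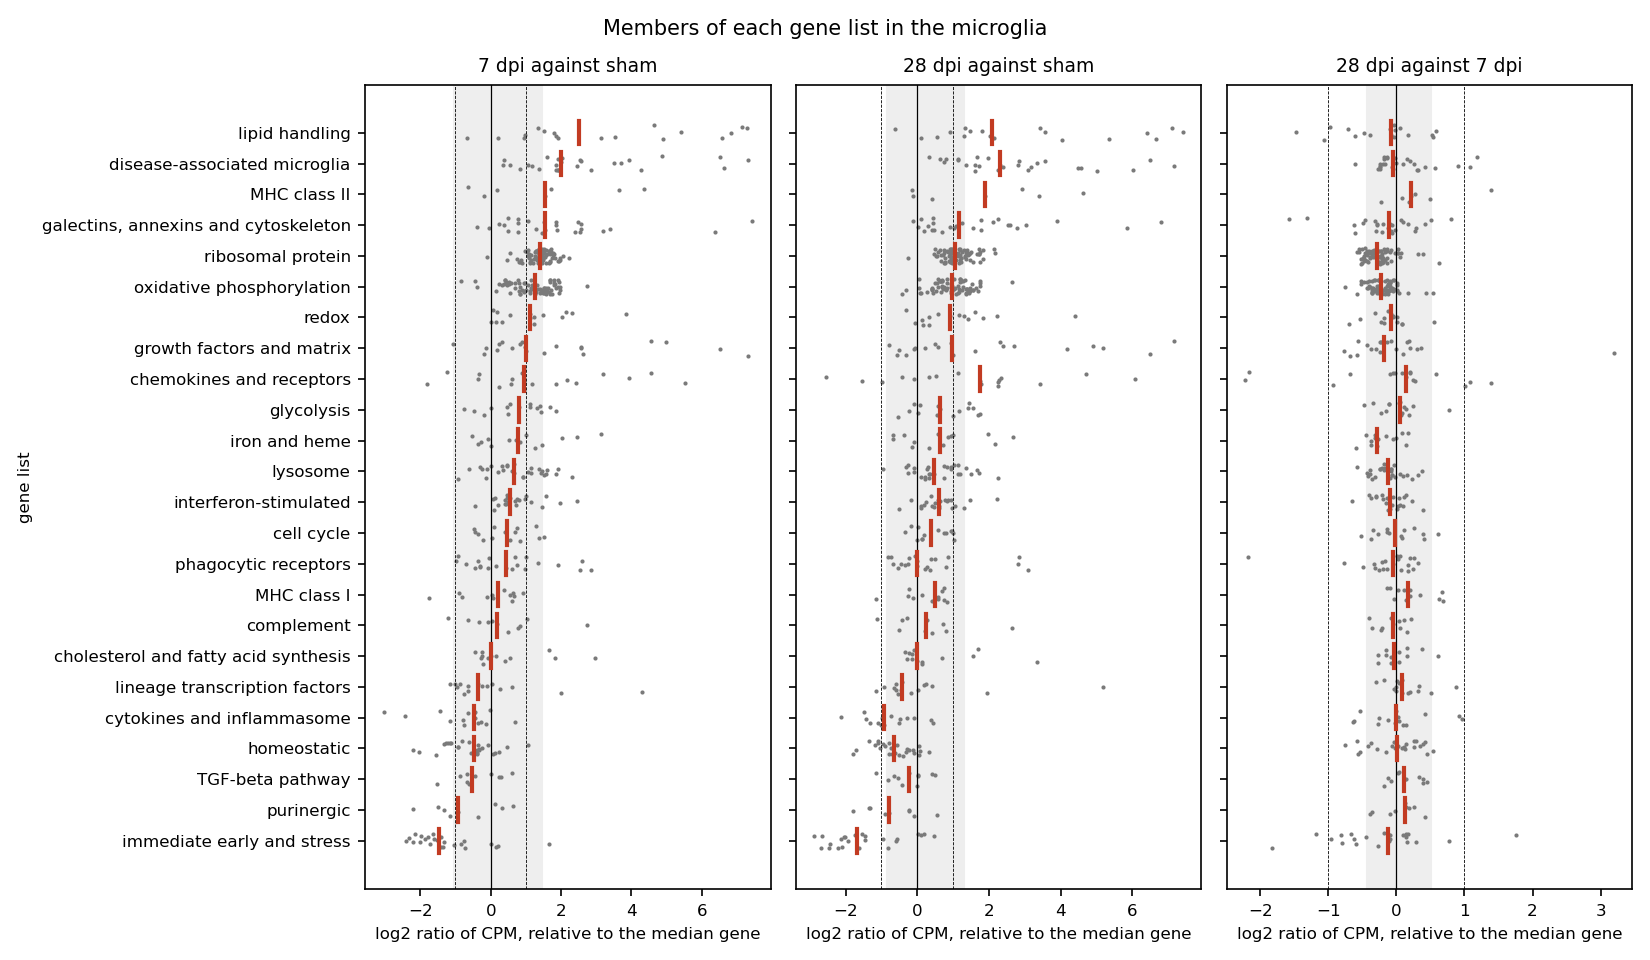
Differences of the members of each gene list (points, 1 per gene) and their median (red bar) in the microglia, as log2 ratios of CPM relative to the median gene, for the 3 comparisons. Grey bands hold all tested genes except the 5% at each end, and dashed lines mark 2-fold. The disease-associated and lipid lists sit farthest above sham, the immediate early list farthest below, and the medians for 28 against 7 dpi lie near 0.

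Droplets also take up free RNA, so the level of a gene per cell was set beside that in cells that should not make it. The readings were the mean UMIs per cell in lymphocytes and in endothelial cells of the same library that had fewer than 3 UMIs of the 3 C1q genes per 1000, and the lower of both served as the comparison. The median of these lymphocytes was 3395, 1439.5 and 1001 UMIs and of these endothelial cells 2925, 2238 and 1242. Apoe had 251 UMIs per microglial cell at 7 dpi against 15.7 in the other cells, and 157 against 5.46 at 28 dpi. Spp1 gave 10.3 against 1.78 and 6.48 against 0.546. P2ry12 gave 1.10 against 0.00424 at 7 dpi. Since the other cells were taken for few C1q UMIs and the lower of both was used, droplets with much myeloid RNA were left out and the ratios are in part set by that choice. Over all cells of the lymphocyte clusters, Apoe read 46392 CPM in the T cell cluster and 55849.8 in the B cell cluster at 7 dpi, under the 80171 of the microglia by less than 2-fold. Spp1 read 3623 and 5738 CPM there, above the 3290.3 of the microglia, while P2ry12 read 40.5 and 55.9 against 351. The part of free RNA, or of droplets with more than 1 cell, in the microglial levels of Apoe and Spp1 was not tested. For Gpnmb, a glycoprotein of lipid-laden macrophages, the microglia were below even the cells with few C1q UMIs at 7 dpi. Its level in microglia was 3.34, 224 and 159 CPM, differences of 6.64 (5.59 to 7.95) and 6.02 (4.97 to 7.34), and at 7 dpi a microglial cell held 0.703 UMIs against 2.02 in a lymphocyte, 1.18 in an endothelial cell and 51.2 in a cell of the MDM cluster. At 28 dpi the microglial value of 0.318 was above the 0.109 of the other cells. Fabp5, a fatty acid carrier, gave 1.38 against 0.807 UMIs per cell at 7 dpi, and Lgals3, galectin-3, 0.503 against 0.414. Of 79 named genes past 2-fold above sham at 7 dpi, 59 had at least 2 times the UMIs per cell of the other cells and 20 did not. Among the 20 were Gpnmb, Fabp5, Lgals1, Lgals3, H2-Aa, Pkm, Prdx1, Sod1 and Fasn, the last given above with fatty acid synthesis. The other cells' reading can hold their own RNA as well as free RNA, and their parts in the microglial level were not tested. Over all 870 genes above sham, 427 (49.1%) reached that ratio, against 42.7% of all 8201 genes.

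**Figure D3:**
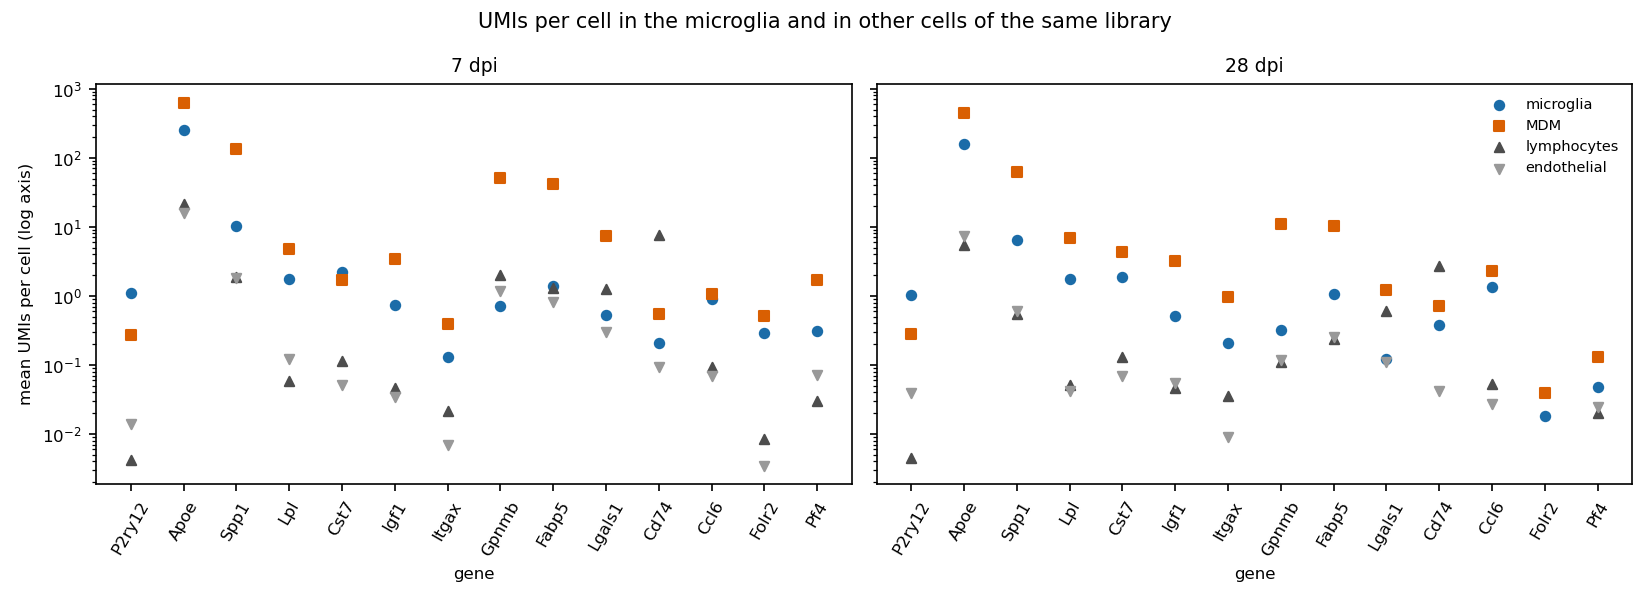
Mean UMIs per cell (log axis) of named genes in microglia (circles), the MDM cluster (squares), and lymphocytes and endothelial cells with few C1q UMIs (triangles) at 7 and 28 dpi, 1 library each, with values of 0 not drawn. Microglia stand above both triangles for P2ry12, Apoe, Spp1, Lpl and Cst7, and below both for Gpnmb at 7 dpi.

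Lysosomal genes were higher in part. Of 29 tested, 12 were past 2-fold higher at 7 dpi and 9 at 28 dpi, against 10.6 and 8.18% of all genes. The list's median was 0.66 and 0.47 (0.10 and 0.02 by plain CPM). The aspartic protease Ctsd read 7488 CPM in sham, 18136 at 7 dpi and 17402 at 28 dpi, a difference of 1.84 (1.82 to 1.87) and 1.66 (1.64 to 1.69), and the cysteine protease Ctsb 2537 CPM in sham, 5222 at 7 dpi and 4794 at 28 dpi. Cd63, a tetraspanin of lysosomal membranes, and Cstb, a protease inhibitor, stood at 761, 1942 and 1859 CPM and 69.7, 233 and 242 CPM. Other proteases of the same compartment stayed within 2-fold: Ctss at -0.32 and -0.10, Ctsl at 0.35 and 0.32 and Lgmn, an asparagine-specific protease, at -0.93 and -0.97, the last being past 2-fold lower by plain CPM (-1.49 and -1.41). Promoters of the list were searched for the E-box TCACGTGA, a letter sequence that factors of the TFEB family are known to bind, from 250 bases before to 50 after the RefSeq gene start (GRCm38.p6, both strands). It was in 3 of the 25 promoters found (12%) and in 304 of all 27025 (1.12%). The 3 windows are shown because they hold the letters, on the strand of the gene, with the motif in capitals. Ctsd lies at chr7:142387893-142387952 on the minus strand, Ctsa at chr2:164833734-164833772 on the plus strand and Atp6v1a at chr16:44139358-44139417 on the minus strand, the last 2 named for the motif alone.
Ctsd: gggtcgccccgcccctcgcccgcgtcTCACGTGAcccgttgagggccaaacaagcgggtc
Ctsa: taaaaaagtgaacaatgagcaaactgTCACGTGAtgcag
Atp6v1a: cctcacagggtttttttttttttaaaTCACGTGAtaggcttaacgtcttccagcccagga

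The motif began 99 bases before the gene start in Ctsd, 13 in Ctsa and 132 in Atp6v1a. A match describes letters in a window and not a bound site. Ctsd was among the lysosomal genes past 2-fold higher at both times, Ctsa, a carboxypeptidase, differed by 1.45 (1.36 to 1.53) and 1.03 (0.94 to 1.11), and Atp6v1a, a subunit of the proton pump, by 1.44 (1.14 to 1.75) and 1.49 (1.19 to 1.80).

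Among 21 phagocytic receptors, 6 were past 2-fold higher at 7 dpi and 3 at 28 dpi, against 10.6 and 8.18% of all genes, with Axl and Clec7a high at both times. Their median was 0.43 at 7 dpi and 0.01 at 28 dpi, and -0.14 and -0.44 by plain CPM, so the sign depended on the scaling. Fcer1g, a signalling chain of Fc receptors, read 2948, 4013 and 3787 CPM, and the lipopolysaccharide receptors Cd14 (539.6, 192 and 240.0 CPM) and Tlr4 (52.0, 17.6 and 21.6 CPM) differed by -0.92 and -0.72 for Cd14 and -0.99 and -0.82 for Tlr4, and were past 2-fold lower at both times by plain CPM. The C1q chains, which start the classical complement pathway, lay within 2-fold of sham at both times, with 9747, 11286 and 11854 CPM for C1qa. C3, the central complement protein, was past 2-fold higher at 7.63 CPM in sham, 34.2 at 7 dpi and 35.2 at 28 dpi, or 2.73 (2.00 to 3.56) and 2.65 (1.93 to 3.48), and C5ar2, a receptor for C5a, past 2-fold lower at -1.22 (-1.52 to -0.91) and -1.12 (-1.40 to -0.83). Of 7 MHC class II genes, which present antigen to CD4 T cells, 4 were past 2-fold higher at each time, against 10.6 and 8.18% of all genes. At each time 2 of the 7 lay below the median gene. The list summed to 594, 484 and 728 CPM, so its total was lower at 7 dpi than in sham. Cd74, the invariant chain, read 33.9 CPM in sham, 66.8 at 7 dpi and 189 at 28 dpi, and was the member that differed past 2-fold between the times. H2-Ab1 read 16.2, 36.1 and 44.4 CPM and H2-Aa 1.43, 19.8 and 26.1 CPM, with 3 UMIs of H2-Aa in sham. Among 12 MHC class I genes, 1 was past 2-fold lower at each time, near the 5.54 and 3.04% of all genes. It was the peptide transporter Tap2 (-1.76 and -1.14), and B2m, the light chain, lay at 0.55 and 0.73.

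Genes of iron, redox and energy metabolism were higher in part. Of 14 iron and heme genes 5 were past 2-fold higher at 7 dpi and 3 at 28 dpi, against 10.6 and 8.18% of all genes, and the list's median of 0.77 and 0.64 was 0.20 and 0.20 by plain CPM. The ferritin chains Fth1 and Ftl1, which store iron, read 4209, 11576 and 12064 CPM and 1799, 6651 and 5952 CPM in sham, 7 dpi and 28 dpi, and the iron exporter Slc40a1 90.6, 42.4 and 41.5 CPM. In the redox list 9 of 15 genes were past 2-fold higher at 7 dpi and 7 at 28 dpi, and Cybb, the catalytic subunit of the phagocyte oxidase, at 12.4 CPM in sham, 121 at 7 dpi and 192 at 28 dpi, stood farthest from sham, by 3.85 (3.29 to 4.47) and 4.40 (3.84 to 5.02). The redox median of 1.12 and 0.93 was 0.55 and 0.48 by plain CPM. Its partner Ncf4 did not pass 2-fold, at 0.05 and -0.07. For glycolysis 7 of 15 and 6 genes were past 2-fold higher, with medians of 0.81 and 0.65 (0.25 and 0.20 by plain CPM), Gapdh standing at 539, 1315 and 1288 CPM, while Hk2, a hexokinase, was at -0.18 and -0.52. Among 75 subunits of oxidative phosphorylation 46 were past 2-fold higher at 7 dpi and 36 were at 28 dpi, with medians of 1.26 and 0.97, or 0.69 and 0.53 by plain CPM. Cox6a2, an isoform known from muscle, gave 15.7 CPM in sham, 70.2 at 7 dpi and 72.3 at 28 dpi. Among 79 ribosomal protein genes 70 were past 2-fold higher at 7 dpi and 44 were at 28 dpi (medians 1.41 and 1.05, but 0.84 and 0.60 by plain CPM, short of 2-fold), and stood lower at 28 than at 7 dpi, with a median of -0.28 and none past 2-fold. Many of these genes are made by all cells, and per cell Rpl35, Rplp1, Cox8a, Atp5e and Uqcrh were under 2 times the level of the other cells at 7 dpi. The same lists in the MDM cluster had medians of 0.33 (ribosomal) and 0.57 (oxidative phosphorylation) at 7 dpi against sham.

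Immediate early genes formed the group farthest below sham. Of 24 tested, 17 were past 2-fold lower at 7 dpi and 16 at 28 dpi, with medians of -1.47 and -1.69, against 5.54 and 3.04% of all genes. Jun, a subunit of the AP-1 factor, read 3811 CPM (3728 to 3896) in sham cells, 657 (638 to 677) in cells of 7 dpi and 653 (636 to 672) in those of 28 dpi, a difference of -1.97 (-2.02 to -1.91) and -2.10 (-2.15 to -2.05). Its partner Fos stood at 1563, 399 and 247 CPM with a difference of -0.81 (-0.89 to -0.72) between 28 and 7 dpi. Klf2, a zinc finger factor, gave 1323, 167 and 151 CPM, Ier5 1149.8, 167 and 194 CPM, and Socs3, an inhibitor of cytokine signalling, 474, 88.4 and 55.2 CPM. Atf3, a stress-induced factor, was not lower, at 0.22 and 0.09, nor was the chaperone Hsp90aa1, at 0.02 and 0.17. Thinned to 1000 UMIs per cell, the whole list summed to a median of 24, 5 and 4 UMIs per microglial cell in sham, 7 dpi and 28 dpi. The same sum was 9, 2 and 2 in the MDM cluster and 6, 3 and 3 in lymphocytes with few C1q UMIs. Cells of other types in the sham library were thus also higher in these genes. The part of the library as a whole in the microglial difference was not tested.

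The promoters of the list were searched for the cAMP response element TGACGTCA, which CREB binds in many genes of this kind, and for the AP-1 letters TGACTCA and TGAGTCA. The response element was in 2 of 23 promoters found (8.70%) and in 549 of all 27025 (2.03%), and the AP-1 letters were in 0 of 23 and in 1607 of all promoters (5.95%). Btg2, which restrains cell division (3018, 459 and 551 CPM in sham, 7 dpi and 28 dpi), and Dusp1, a phosphatase of MAP kinases (567, 112 and 76.4 CPM), carried the element, and both were past 2-fold lower at both times. Their windows, at chr1:134079288-134079347 and chr17:26508582-26508641 (GRCm38.p6, both on the minus strand), are shown with the motif in capitals.
Btg2: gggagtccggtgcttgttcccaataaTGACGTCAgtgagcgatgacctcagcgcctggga
Dusp1: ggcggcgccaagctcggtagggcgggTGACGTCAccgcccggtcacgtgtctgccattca

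The motif began 166 bases before the gene start in Btg2 and 143 in Dusp1. Absence of a match says only that these letters are not in the window.

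Chemokine genes were in part higher after injury, and cytokine genes were not past 2-fold higher. Of 17 chemokines and receptors, 8 were past 2-fold higher and 2 lower at 7 dpi, and 10 higher and 2 lower at 28 dpi. Of all genes, 10.6 and 8.18% were past 2-fold higher and 5.54 and 3.04% lower at these times. Ccl4 and Ccl3, chemokines that attract monocytes and T cells, read 178, 535 and 663 CPM and 362, 468 and 585 CPM. Cxcl14 and Cxcl16, ligands of other receptors, stood at 1.91, 58.8 and 95.5 CPM and 106, 257 and 262 CPM, and Cxcl10, an interferon-induced chemokine, at 80.2, 23.1 and 29.5 CPM. None of the 15 cytokine and inflammasome genes was past 2-fold higher at either time, and 4 and 6 were lower at 7 and 28 dpi (medians -0.46 and -0.92, or -1.03 and -1.36 by plain CPM). Il1a, an interleukin-1, read 109 CPM (95.1 to 124) in sham cells, 13.5 (10.9 to 16.5) in cells of 7 dpi and 28.4 (24.8 to 32.3) in those of 28 dpi, and Il7r 57.7, 4.74 and 9.71 CPM. Il1b lay at -0.03 and 0.38, and the receptor chain Il10ra, for the anti-inflammatory interleukin-10, was lower at -1.16 and -1.43. Of 23 interferon-stimulated genes, 6 and 4 were past 2-fold higher at 7 and 28 dpi, against 10.6 and 8.18% of all genes. Among them were Ifi27l2a (141, 523 and 488 CPM), Ifitm3 (121, 321 and 220.3 CPM) and Bst2 (206, 379.8 and 311 CPM). Other members such as Ifit3 (-0.46 and -0.52) and Mx1 (0.08 and 0.19) were not. Of the 23 genes, 22 lay above the median gene at 7 dpi and 21 at 28 dpi, but the list's median of 0.54 at 7 dpi was -0.03 by plain CPM.

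Division genes were scarce in these cells. Of 34 cell cycle genes 14 reached the minimum of UMIs, 3 of them were past 2-fold higher at 7 dpi and 1 at 28 dpi, against 10.6 and 8.18% of all genes, and the list's median of 0.48 and 0.39 was -0.09 and -0.05 by plain CPM. Cdk1, the mitotic kinase, read 5.73 CPM in sham, 9.92 at 7 dpi and 8.32 at 28 dpi, Stmn1, a tubulin regulator, 30.1, 49.9 and 44.6 CPM, and Cdkn1a, an inhibitor of the cycle, 43.4, 82.9 and 62.6 CPM. After thinning, 0, 0.252 and 0.196% of cells held a UMI of Mki67, which marks dividing cells. Of the 172 and 226 lymphocytes with few C1q UMIs left at 7 and 28 dpi, 0.581 and 0.442% did. All of these shares rest on very few cells. Mki67 and Top2a, a topoisomerase of dividing cells, together read 6.02 CPM in cluster 0 and 1373 in cluster 8, where the 4 microglia markers summed to 697 CPM, monocyte markers to 1462 and neutrophil markers to 27671, and that cluster was not counted as microglia here. Mki67 and Top2a were named after their values were seen.

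The genes past 2-fold between 7 and 28 dpi came from several groups. Higher at 28 dpi were Ccl5, a chemokine that attracts T cells, at 41.0 CPM (32.8 to 50.7) in sham cells, 51.2 (46.0 to 56.9) in cells of 7 dpi and 146 (138 to 155) in those of 28 dpi, and Cd74, at 33.9 CPM (26.5 to 42.7) in sham cells, 66.8 (60.8 to 73.3) in cells of 7 dpi and 189 (179 to 199) in those of 28 dpi, with differences of 1.40 (1.22 to 1.57) and 1.38 (1.23 to 1.54) from 7 dpi. Per cell, Ccl5 was 0.790 times the lower of the other cells at 7 dpi and 2.35 times at 28 dpi, and Cd74 2.25 and 8.91 times. Markers of T and NK cells, which make Ccl5, summed to 0, 0.444 and 3.03 CPM and 0.954, 0.741 and 4.16 CPM in the microglia, with every T cell marker at 0 in sham, and markers of B cells, which make Cd74, to 42.9, 20.6 and 17.4 CPM. Their part in the difference was not tested. Itgax, the integrin CD11c, read 15.7, 42.1 and 104 CPM in sham, 7 dpi and 28 dpi, and Ccl6, a chemokine, 191, 290.2 and 664 CPM. Ank, a phosphate transporter, read 26.2, 67.1 and 136 CPM, and its difference of 0.90 between the times was short of 2-fold. Alcam, an adhesion molecule, gave 2.39, 15.1 and 34.9 CPM, with 5 UMIs in sham, and was 1.09 (0.76 to 1.44) above 7 dpi. Tnfsf13b, Tspan13 and Il1a were higher at 28 than at 7 dpi and past 2-fold below sham at 7 dpi. Tnfsf13b, the B cell survival factor BAFF, read 64.4, 14.5 and 35.2 CPM and Tspan13 117, 36.3 and 79.0 CPM. Il1a, given above, was 0.96 (0.60 to 1.33) over 7 dpi, short of 2-fold. St8sia6, a sialyltransferase, read 26.2, 12.9 and 34.8 CPM, and its difference of -0.46 (-0.96 to 0.06) from sham at 7 dpi was within counting error of 0. Mmp12, the macrophage elastase, had 0, 13 and 151 UMIs in the 3 libraries, a difference of 3.19 (2.37 to 4.13) between the times. In the MDM cluster Mmp12 was also higher at 28 dpi, with 32.4 CPM at 7 dpi and 325 at 28 dpi.

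Lower at 28 dpi were several genes known from macrophages of borders and blood. Folr2, a folate receptor, read 3.34 CPM (1.34 to 6.88) in sham cells, 93.3 (86.2 to 101) in cells of 7 dpi and 9.08 (7.11 to 11.4) in those of 28 dpi, a difference of -3.48 (-3.85 to -3.12) between the times, the farthest of the named genes. Stab1, a scavenger receptor, stood at 89.2, 226 and 54.2 CPM, Pf4, a chemokine, at 9.54, 98.2 and 23.8 CPM and Ctla2a, a protease inhibitor, at 32.0, 222 and 65.8 CPM. Wfdc17, Lgals1 (galectin-1) and Pltp, a phospholipid carrier, gave 13.8, 360.2 and 141 CPM, 1.43, 167 and 60.8 CPM and 2.86, 57.9 and 22.7 CPM. Dab2, an endocytic adaptor, Msr1, a scavenger receptor, and Ms4a7, a membrane protein of infiltrating macrophages, stood at 5.25, 60.4 and 26.9 CPM, 1.91, 32.0 and 16.5 CPM and 0, 169 and 76.7 CPM. Except for Stab1, Marcksl1, Adamts1 and Rn45s, the 15 lowest genes by the rule were still above sham at 28 dpi relative to the median gene. Per cell, Folr2 at 7 dpi had 0.292 UMIs against 0.00345 in the other cells, while Lgals1, Pltp and Ctla2a were under 2 times the other cells. Folr2, Stab1 and Pf4 were lower at 28 than at 7 dpi in the MDM cluster as well, where Folr2 stood -3.07, Stab1 -2.35 and Pf4 -3.07 from the median gene.

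Markers of MDMs moved with this comparison, since their sum in the microglia was highest at 7 dpi. Cells with at least 2 UMIs of the 6 MDM markers numbered 5 (0.742%), 371 (17.2%) and 151 (3.80%) in sham, 7 dpi and 28 dpi. Without them 20 of 28 named genes past 2-fold between the times stayed past it in the same direction. Folr2 kept a difference of -3.32, Stab1 -1.92, Wfdc17 -1.21, Cd74 1.43 and Ccl5 1.35. Ms4a7 and Pf4, which are markers used for leaving cells out, were at 0.15 and -1.19, so Ms4a7 changed direction, while Dab2 (-0.90), Msr1 (-0.74), Gpx3 (-0.99), Ifitm2 (-0.94), Itgax (0.99), Ccl6 (0.92) and Tspan13 (0.86) fell short of 2-fold. The part of MDM RNA or of MDMs within the cluster in the other differences was not tested.

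**Figure D4:**
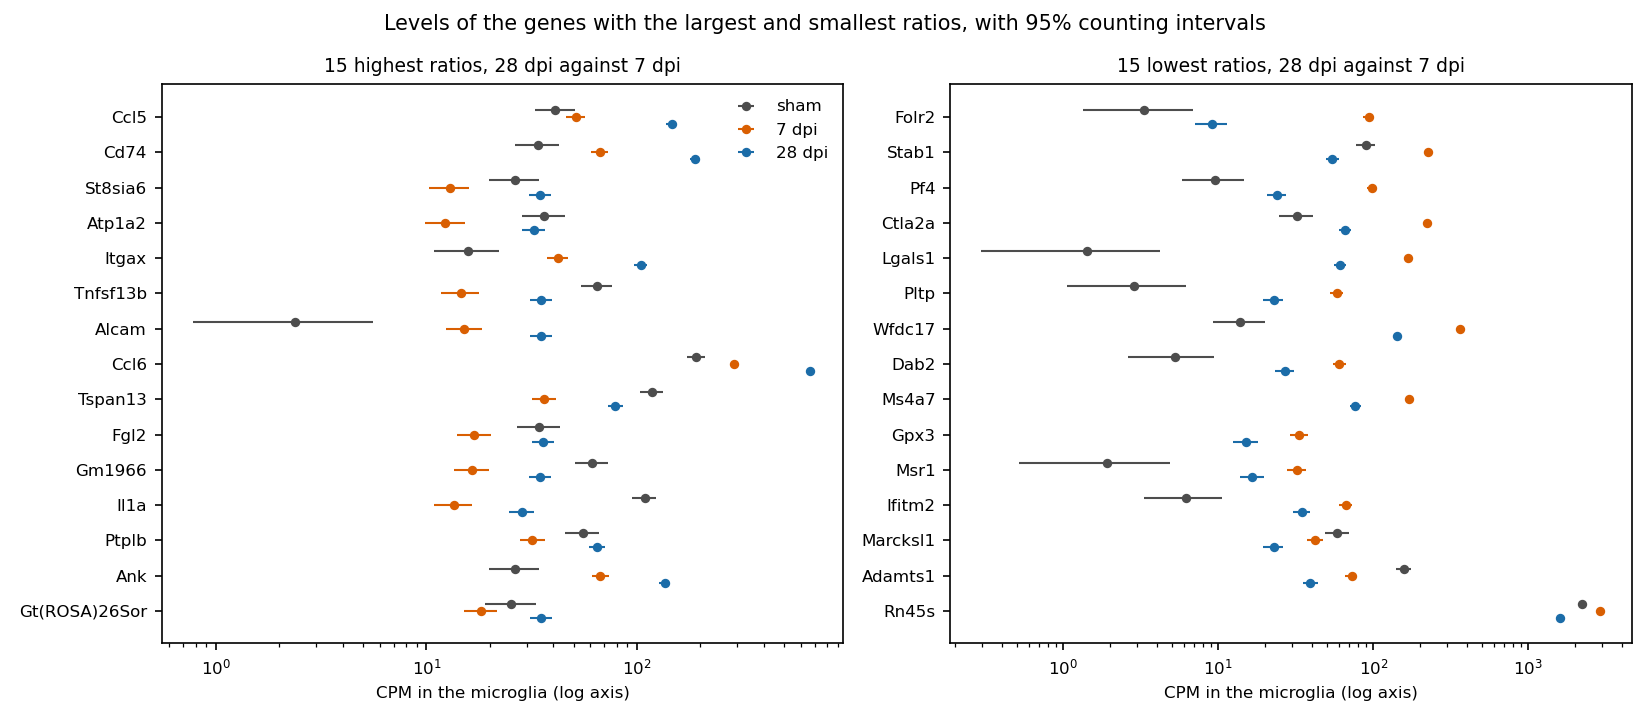
Levels in CPM (log axis) of the 15 genes at the upper end and the 15 at the lower end of the ratio of 28 to 7 dpi, in sham, 7 dpi and 28 dpi microglia, with exact Poisson 95% intervals as bars (counting error only, 1 library each, values of 0 not drawn). For St8sia6, Tnfsf13b and Il1a the 7 dpi library is the lowest of the 3, and for Folr2, Pf4 and Wfdc17 it is the highest.

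Cells of 1 library differed in how far they carried these patterns. For this, each cell was thinned to 1000 UMIs, which left 548, 1984 and 3068 cells and left out 126, 170 and 906 shallower ones. The 4 microglia markers together gave a median of 7, 1 and 2 UMIs per cell in sham, 7 dpi and 28 dpi. At least 1 such UMI was found in 99.8, 74.3 and 75.4% of cells, against 2.47, 5.23 and 5.75% of lymphocytes with few C1q UMIs. Lymphocyte droplets with more myeloid RNA were thereby left out, so these low shares are in part set by that choice. P2ry12 alone was seen in 86.5% (83.3 to 89.2%), 30.1% (28.1 to 32.2%) and 34.6% (33.0 to 36.4%) of microglia, and before thinning in 55.2 and 51.6% at 7 and 28 dpi. Apoe, with a median of 1 UMI in sham and 70 and 68 after injury, spread widely, from 11 to 169 UMIs at 7 dpi and from 4 to 188 at 28 dpi over the cells between the 5% at either end. In the same lymphocytes its median was 0, 3 and 3 UMIs, also in part set by that choice. The disease-associated list without Apoe summed to a median of 30, 61 and 65 UMIs per cell, and its lower quartile after injury, 47 and 48, was above the upper quartile in sham, 37.

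After injury the cells with more marker UMIs held fewer disease-associated UMIs. At 28 dpi, 756, 1274 and 1038 cells had 0, 1 or 2, and 3 or more of the 4-marker UMIs, and their median of the list without Apoe was 74, 70 and 50 UMIs. Apoe in the same cells had medians of 99.5, 79 and 25.5 UMIs. At 7 dpi the list gave 68.5, 63 and 50 and Apoe 88.5, 74 and 45 UMIs over 510, 910 and 564 cells. Both times thus showed the same order, and at 28 dpi Apoe spread farther over the 3 classes. The share of cells with an MDM marker UMI moved with the classes, at 25.1, 18.4 and 8.33% at 7 dpi and 9.66, 9.34 and 3.95% at 28 dpi, and its part in the order was not tested. In sham 504 of 548 cells had 3 or more marker UMIs, with a list median of 30 and an Apoe median of 1 UMI. The 43 sham cells with 1 or 2 marker UMIs had medians of 30 and 7, and 1 cell had 0. Apoe was thus lower with more marker UMIs in sham as well, while the list was not. At a fixed number of UMIs per cell, more UMIs of 1 group leave fewer for the others, and the classes are ranges of a count and not cell types. These are descriptions of cells within 1 pool, which are not replicates.

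**Figure D5:**
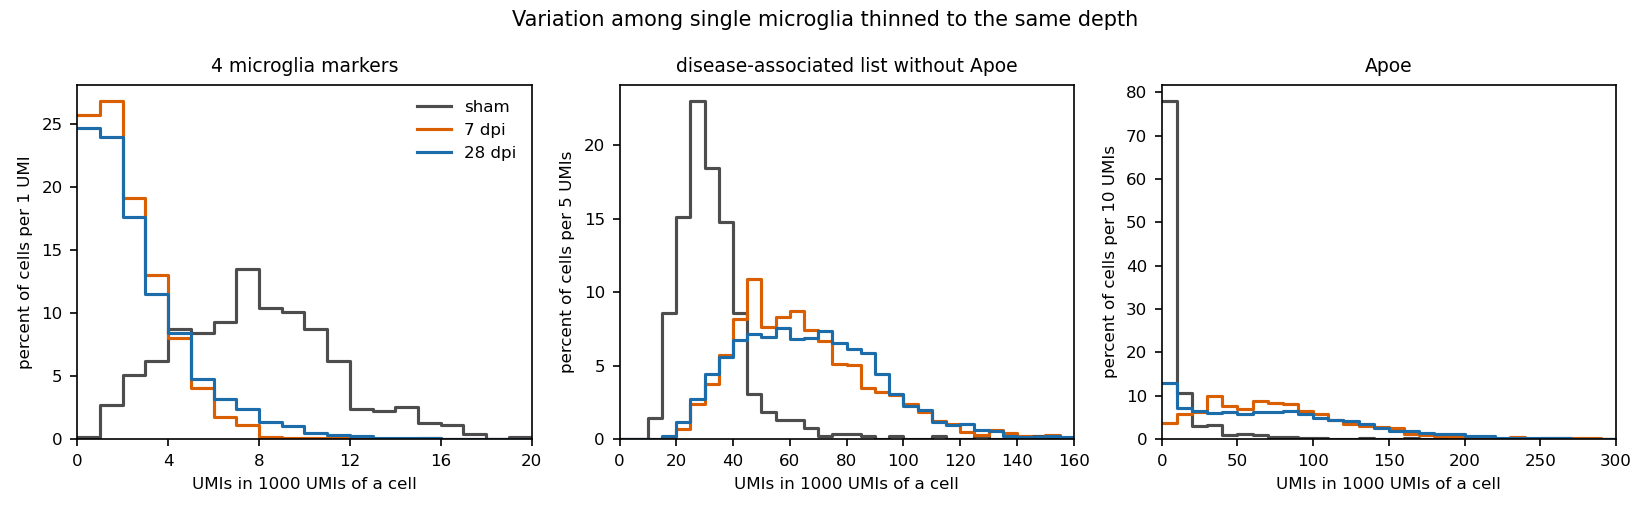
Distribution over microglial cells, thinned to 1000 UMIs, of the summed UMIs of the 4 microglia markers, of the disease-associated list without Apoe and of Apoe, as the percent of cells per bin of 1, 5 and 10 UMIs in sham, 7 dpi and 28 dpi. Sham cells centre on 7 marker UMIs and those of 7 and 28 dpi on 1 and 2, while the other sums are shifted upward after injury.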

How the data were processed

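Droplet libraries of whole cord cells were read by the authors with Cell Ranger against a mouse Ensembl annotation and filtered and clustered with Seurat. The genome build of the single-cell reads is not given in the sources used here. The deposited values are raw counts of UMIs per gene and cell, with a cluster number per cell. Beside the deposited matrices of each library, the table reads 0 for 800, 507 and 506 genes found in fewer than 3 cells of a library (sham, 7 dpi, 28 dpi) and leaves out 121, 0 and 2 barcodes, all with fewer than 200 genes. It keeps 117, 290 and 51 cells above the stated maximum of 3000 genes. The files used held 0 mitochondrial genes, so that filter was not checked.

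UMIs were summed over the cells of cluster 0 in each library. CPM have exact Poisson intervals, ratios exact conditional binomial intervals and shares of cells Clopper-Pearson intervals, all at 95%. Each condition was 1 library, so no test was made. Genes needed at least 100 UMIs over the 3 libraries. The genes named are, per comparison, the 15 highest and 15 lowest ratios among genes whose UMIs reached 300 over both libraries and 10 in each, per gene list the 4 members with most UMIs and the 2 highest and 2 lowest per comparison, and the markers, though a few of them are not reported here. The members and the gene lists were chosen with earlier results of these data known. The comparison with lymphocytes (clusters 5 and 7) and endothelial cells (cluster 2), and its maximum of C1q UMIs, were set after values had been seen. The ratio and thinning steps were tested on simulated counts, with the totals of 28 and 7 dpi for the ratio.

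The counts were repeated with other scaling (TMM factors of edgeR or size factors of DESeq2, neither tool being used for a test), each cell weighted alike, thinning of cells to 1000 UMIs, a minimum of 500 genes per cell, cells with MDM markers left out, cells with a microglia marker only, at least 30 or 300 UMIs, and intervals wholly past 2-fold. Plain CPM, and the injured sums drawn down to the sham total, were added after seeing the data. Sequences are from RefSeq on GRCm38.p6. Sums and intervals were made in Python 3.11.15 (scipy 1.17.1, with numpy 2.4.6 and pandas 2.3.3 for tables), Scrublet was run through scanpy 1.11.5, figures were drawn with matplotlib 3.10.9, and scaling factors came from edgeR 4.0.16 and DESeq2 1.42.0 in R 4.3.3.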

Additional observations from a re-analysis of the deposited data

How the results depend on the processing

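The counts of genes past 2-fold stayed within 1.5 times, in all 3 comparisons and both directions, with TMM factors, with DESeq2's size factors, with each cell weighted alike, with cells of at least 500 genes, with MDM-marker cells left out and with marker-positive cells only. Single values moved more, where a named gene counts as moved once it lies outside its 95% counting interval. Weighting each cell alike moved 218 of 571 named values and 13 of 72 list medians, thinning moved 215 of 507 and 14 of 72, and leaving out MDM-marker cells moved 101 of 565 and 3 of 72. With cells thinned to 1000 UMIs, 19 genes were higher and 14 lower at 28 than at 7 dpi, from fewer UMIs. With at least 30 UMIs, 770 genes were below sham at 7 dpi and 479 at 28 dpi, and 167 were higher and 114 lower at 28 than at 7 dpi. With at least 300 UMIs, from fewer genes, 578 were above and 255 below sham at 7 dpi, 429 above and 147 below at 28 dpi, and 11 higher and 14 lower between the times. Intervals wholly past 2-fold gave 467 above and 132 below at 7 dpi, 344 and 85 at 28 dpi, and 8 higher and 18 lower between the times. By plain CPM, chosen after seeing the data, 345 were above and 1945 below sham at 7 dpi, 321 and 1103 at 28 dpi, and 73 were higher at 28 than at 7 dpi, so the split of higher against lower calls depends on the centring. With the injured sums drawn down to the sham total, also chosen after seeing the data, 159 were higher and 117 lower at 28 than at 7 dpi, from fewer UMIs. Of 112 named genes past 2-fold at 7 dpi, plain CPM kept 92 past it in the same direction, and of 107 at 28 dpi also 92. Ms4a7 between 28 and 7 dpi turned to 0.15 with MDM-marker cells left out, of which it is a marker. The planned run without Scrublet doublets was not made, since the caller did not work. Of 42 shares of cells with a UMI, 36 moved when cells were thinned to 500 UMIs and 36 without thinning. No paired analysis was possible because each condition is 1 library, and for the same reason no library could be left out. Differences between pools of mice, dissociation or capture cannot be told apart from those between conditions, and the shallower cells of 28 dpi limit what is seen per cell.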
